A study of Rattus norvegicus with 458 samples.

Results

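miR-143 and miR-145 are the microRNAs (miRNAs) of smooth muscle, and their mature forms from both arms of each precursor were followed across 23 tissues of the rat. Members were every miRNA name of the count table in which miR-143 or miR-145 stood as a name of its own, with either arm and without precursor entries. This gave 10 of 7534 names: the 4 single names miR-143-3p, miR-143-5p, miR-145-5p and miR-145-3p, and 6 composite names that join a member to a predicted miRNA and held 2 to 12 counts each over all libraries. The composite names were too sparse for any comparison, and the text below is about the 4 single names. Small RNA was sequenced from untreated Sprague Dawley rats of 12 to 13 weeks, 5 male and 5 female, so that the groups differ by tissue and sex and by no treatment. There were 10 rats for each of 19 tissues and 5 for the testicle, the ovary and the uterus, while the dorsal root ganglion had 10 technical libraries of 2 RNA pools, 1 per sex, which were summed to 2 samples. The authors state that the ganglion RNA was supplied by Takeda Pharmaceuticals, and it has no RNA integrity number. For the ganglion, tissue and source of the RNA cannot be told apart. The tissues labelled Cortex and Medulla are those of the kidney.

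The genes of both miRNAs lie side by side and are transcribed together, under the control of serum response factor and its muscle partner myocardin. In the wall of vessels and hollow organs they are among the most abundant miRNAs of the smooth muscle cell, where they favour the contractile over the proliferating state, for example by acting on KLF4 and other regulators. The strand that is loaded into Argonaute in large amounts is the 3p strand for miR-143 and the 5p strand for miR-145. In bulk tissue, fewer cells of a type and less RNA per cell cannot be told apart.

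The 4 mature sequences of RefSeq (assembly GRCr8) are shown because the seed, bases 2 to 8 from the 5′ end, decides which transcripts are recognised. Capitals mark the seed.
miR-143-3p: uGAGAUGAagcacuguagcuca
miR-143-5p: gGUGCAGUgcugcaucucugg
miR-145-5p: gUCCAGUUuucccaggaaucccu
miR-145-3p: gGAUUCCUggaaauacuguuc
The 4 seeds differ from each other. Among the 693 mature rat miRNAs of the RefSeq table, 0 others carried any of the 4. In GRCr8 both hairpins lie on the minus strand of chromosome 18, Mir143 at chr18:57371349-57371453 and Mir145 at chr18:57369983-57370070, with 1278 bases between them. Both are inside the long non-coding RNA gene Carmn (chr18:57368191-57389112), a transcript known from heart and smooth muscle.

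Libraries held between 376401 and 17725805 counts on miRNA names (median 4816409), and the 5 testicle libraries were the shallowest, with 376401 to 653651. Because their profile stood apart from that of their label, 10 libraries were left out by rule, and 205 were used. The values of the left-out libraries show the size of the difference. In the hippocampus of rats 2, 6 and 7, miR-124-3p and miR-9a-5p, which mark neurons, summed to 14.2, 59.5 and 25.8 CPM (counts in every 1000000 counts of a library), against 43701 to 50704 in the 7 other hippocampus libraries. The duodenum libraries of rats 2, 4, 7 and 11 held 41.2, 45.6, 46.5 and 46.5 CPM of 7 epithelial miRNAs (the miR-200 family, miR-205 and miR-203a-3p), against 9233 to 12204 in the 6 others. The same list stood at 13127 CPM in the adrenal of rat 8, against 47.1 to 99.0 in the others, at 11788 CPM in the uterus of rat 8, against 501.7 to 1470, and at 11308 CPM in the ovary of rat 11, against 2621 to 3238. Besides these, runs of the same library differed in whole blood, and in 1 flow cell lane many reads had 1 more base at the 5′ end. Both are described where they touch a result. All 10 pancreas libraries were made from RNA that had been extracted a second time, with RNA integrity numbers of 4.9 to 6.8 (median 6.2), where the other tissues with such a number lay between 6 and 9.9, so for the pancreas the tissue and the extract cannot be told apart.

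The authors state that ligase bias affected how well sequencing measured amounts in their data, so the levels here are shares of counts and not of molecules. miR-143-3p was the most counted of the 4 names, with 188762644 counts, or 99.4% of those of the 4 names over all libraries. In the non-glandular stomach it was the larger part of all miRNA counts: its level lay between 770173 and 878595 CPM with a median of 851507, and the mean of 840799 ± 31356 (SD, n = 10) is 84.1% of the counts. The glandular stomach followed with 679631 to 795265 CPM (median 742349, mean 742690 ± 33886, n = 10). The 10 libraries of the glandular stomach and the 10 of the non-glandular stomach overlapped between 770173 and 795265 CPM. In the uterus, whose wall is largely smooth muscle, the 4 libraries had 681662, 580596, 584361 and 528435 CPM, and in the ovary 309641, 315955, 354754 and 373244. The lowest uterus library stood above the highest ovary library.

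The gut was next. The ileum had 272407 to 363763 CPM (median 311265), the duodenum 210825 to 358988 (median 261552, n = 6) and the jejunum 163736 to 262813 (median 210490). These 3 ranges overlapped. The testicle, whose seminiferous tubules are wrapped in contractile myoid cells, had 149005, 122606, 108027, 139308 and 125410 CPM, below every library of the gut, stomach, uterus and ovary. The heart had 71596 to 96205 CPM (median 89896) and the soleus 45871 to 86357 (median 58818). The other striated muscle, the biceps, had a lower mean than both (below).

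Below the heart and the soleus, the tissues ran close together. Mean levels were 47332 CPM in the dorsal root ganglion (2 pools), 41772 in the biceps, 37752 in the liver, 35218 in the brainstem and 30807, 29981 and 29314 in the kidney, its cortex and its medulla. The cerebrum had 21040 CPM, the pancreas 17352, the adrenal 16107, the hippocampus 15705 and the cerebellum 12979. Whole blood was far lower, with 134.6 to 2716 CPM and a median of 223.8. Its mean of 537.9 was 1563-fold below that of the non-glandular stomach (without rat 6, whose library had 2716, the mean was 295.9 and the fold 2842), and the next lowest tissue, the cerebellum, was 64.8-fold below it. These folds are of CPM, which are shares of a total. In whole blood the composite name of miR-3107-5p and miR-486-5p had a mean of 852125 CPM. The difference between cerebellum and whole blood after scaling is given below. The 50 libraries of the gut, stomach and uterus lay between 163736 and 878595 CPM. The 141 libraries of the other tissues, without the ovary and without the dorsal root ganglion, lay between 134.6 and 149005, so these 2 sets did not overlap. With the ovary the others were 145 libraries that reached 373244 CPM, and the sets overlapped. Of all 1612 names tested, 23.4% were called higher in gut, stomach and uterus (below). That is a share of calls, and the share of names without overlap is not given here. The left-out libraries would have changed these means: with them the duodenum would have had 172872 CPM, the hippocampus 143287, the adrenal 39288, the ovary 316866 and the uterus 521411.

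**Figure D1:**
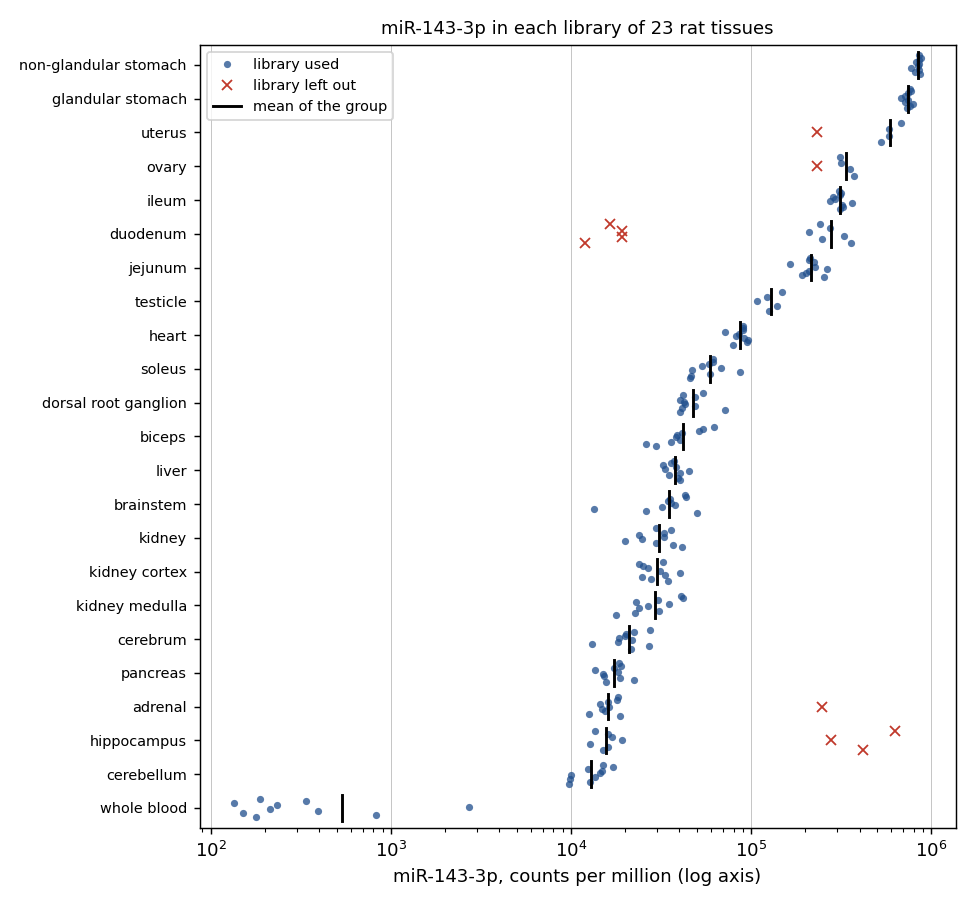
Level of miR-143-3p (CPM, log axis) in every library by tissue, ordered by mean. Dots are libraries used (in the dorsal root ganglion these are technical), crosses are the 10 libraries left out, and bars are means. Stomach and uterus stand at the top, from 528435 to 878595 in the libraries used, and whole blood at the bottom, from 134.6 to 2716.

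The other 3 names followed almost the same order at much lower levels. miR-145-5p, the abundant arm of miR-145, had 853787 counts in all. Its mean was 3271 ± 722 CPM (SD, n = 10; range 2056 to 4461, median 3046) in the glandular stomach, 3070 ± 541 in the non-glandular stomach, 2239 ± 244 (n = 4) in the uterus and 1758 ± 294 (n = 4) in the ovary. It was 108.0 ± 25.4 CPM in the cerebellum and 2.68 ± 4.23 in whole blood. The sister arm miR-145-3p had 324040 counts, with a mean of 972.8 ± 88.1 CPM (range 854.3 to 1105) in the glandular stomach and 47.2 ± 7.03 in the cerebellum. The passenger strand miR-143-5p had 35630 counts, with a mean of 110.2 ± 15 CPM in the glandular stomach (range 82.4 to 128.9) and 4.89 ± 1.02 in the cerebellum. miR-143-5p was at 0 in 7 libraries and miR-145-3p in 2. By mean CPM the glandular stomach led for these 3 names, and the non-glandular stomach for miR-143-3p. CPM are shares of a total that miR-143-3p largely fills here. After scaling, the non-glandular stomach had the largest fold for each name (below). For these 3 names the gut, stomach and uterus libraries overlapped with the others even without the ovary: the lowest of the 50 had 36.5 CPM of miR-143-5p, 537.5 of miR-145-5p and 320.2 of miR-145-3p, and the highest of the 141 had 54.0, 1034 and 563.5.

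**Figure D2:**
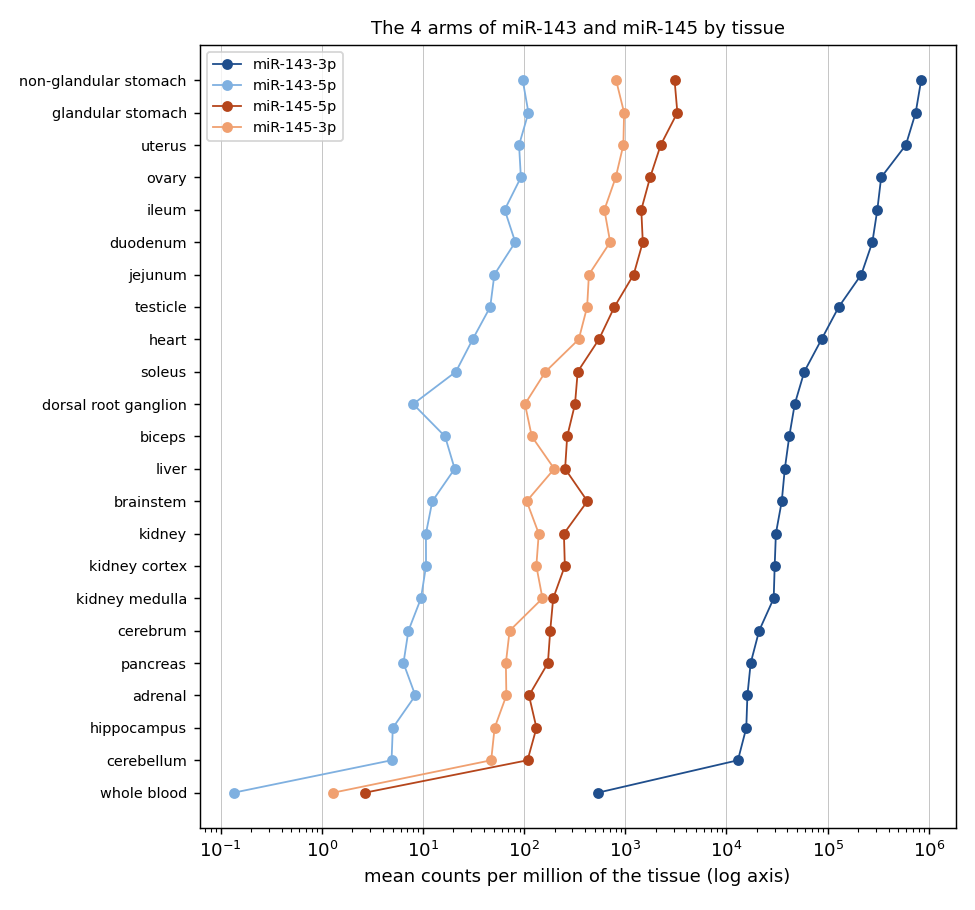
Mean level (CPM, log axis) of the 4 arms in each tissue, with tissues in the order of miR-143-3p. The 4 lines run nearly parallel from stomach to whole blood, with miR-143-3p at 840799 in the non-glandular stomach and miR-143-5p at 110.2 in the glandular stomach as their highest points.

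Across the 23 tissue means, on log2(CPM + 1), the Pearson correlation with miR-143-3p was 0.990 for miR-145-5p, 0.978 for miR-145-3p and 0.977 for miR-143-5p, and these were the 3 highest of 784 names above 10 CPM in at least 1 tissue. The points share their libraries and totals. The 5 names that came next, and are no members, were miR-199a-3p (0.706), miR-205 (0.678), miR-28-3p (0.672), miR-199a-5p (0.664) and a composite of miR-199a-5p (0.662). For miR-145-5p the same 5 came next, between 0.657 and 0.705, with miR-199a-3p again in front. miR-199a is known from mesenchymal cells and miR-205 from squamous epithelium. Their highest means were 5986 CPM for miR-199a-3p in the uterus and 1074 for miR-205 in the non-glandular stomach, while miR-28-3p was highest in the liver (2511).

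Organs whose wall holds layers of smooth muscle (both parts of the stomach, the duodenum, the jejunum, the ileum and the uterus) were compared as a mean of 6 tissues with the mean of the other 17, in 1 edgeR quasi-likelihood fit of 197 samples. All 4 members were higher. The log2 fold change was 5.16 ± 0.12 (SE) for miR-143-3p, 4.45 ± 0.13 for miR-145-5p, 4.23 ± 0.11 for miR-143-5p and 4.09 ± 0.12 for miR-145-3p, with edgeR adjusted p values of 3.1e-94, 1.1e-80, 4.1e-84 and 3.9e-78. Of all 1612 names tested, 23.4% were called higher and 15.1% lower, with a median log2 fold change of 0.04. The folds changed with the scaling of the libraries. With the trimmed mean of M values (TMM) in place of the upper quartile they were 4.75, 4.07, 3.82 and 3.68, the median over all names was -0.23, and 16.7% of the names were called higher and 21.8% lower. With DESeq2 they were 5.07, 4.38, 4.13 and 3.99.

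Taken singly, every tissue was set against the mean of its 22 counterparts, which gives 92 tests for the 4 members. With upper quartile scaling 34 were called higher, 44 lower and 14 neither way, against 24.4% and 12.9% of all tests over all names. With TMM the counts were 30, 47 and 15, and 30 and 42 held under both. Non-glandular stomach had the largest fold for each member, from 4.18 ± 0.13 for miR-145-3p to 5.87 ± 0.13 for miR-143-3p on the log2 scale. All 4 members were called higher in both stomachs, the uterus, the ovary and the 3 parts of the gut with either scaling. Of all names tested, the upper quartile called higher 26% in the non-glandular stomach, 21.3% in the glandular stomach, 13.8% in the uterus, 15% in the ovary, 22.3% in the ileum, 29.2% in the jejunum and 20.3% in the duodenum. With TMM these shares were 18.9%, 19.7%, 9.93%, 15.3%, 18.9%, 24.5% and 17%, in the same order of tissues. For miR-143-3p these folds were 4.74 ± 0.12 in the glandular stomach, 4.70 ± 0.14 in the uterus, 3.29 ± 0.12 in the ileum, 2.77 ± 0.12 in the jejunum, 2.55 ± 0.15 in the duodenum and 2.16 ± 0.19 in the ovary.

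The lowest values were those of whole blood, with log2 fold changes from -4.52 ± 0.31 (miR-143-5p) to -4.76 ± 0.28 (miR-145-3p), and of the brain. Without rat 6 the folds in whole blood were -5.04 for miR-143-3p, -6.23 for miR-143-5p, -5.24 for miR-145-5p and -5.91 for miR-145-3p, so that the order of the members changed, and miR-143-5p then rested on 2 counts. In the hippocampus the 4 members lay between -3.82 ± 0.26 and -3.39 ± 0.29, in the cerebellum between -3.43 ± 0.21 and -3.02 ± 0.22, and in the cerebrum between -3.24 ± 0.21 and -2.77 ± 0.23. The brainstem, the adrenal and the pancreas were also called lower for all 4. Of all names tested, the calls of a lower level took up 16.6% in whole blood, 23.3% in the hippocampus, 19.5% in the cerebellum, 28.2% in the cerebrum, 30.5% in the brainstem, 15.1% in the adrenal and 14% in the pancreas. With TMM, all members were again called lower in these 7 tissues, by less in the brain (miR-143-3p at -2.52 in the hippocampus) and by more in whole blood (-5.44). The shares of all names called lower with TMM were 22%, 10.3%, 11.7%, 14.7%, 11.3%, 9.18% and 15.9%, in the order given above.

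In the middle of the range the call hung on the scaling for some members and not for others. With the upper quartile 31.6% of all names were called higher in the heart and 33.7% in the liver, and 6.33% lower in the kidney and 18.4% in the testicle. With TMM these were 17.7%, 17.9%, 10.7% and 18.1%. All 4 members were called higher in the heart with the upper quartile, and miR-143-5p (1.29 and 0.61 with TMM) and miR-145-3p (1.52 and 0.82) with both scalings. The other 2 lost the call with TMM. In the heart miR-143-3p was at 0.98 ± 0.14 (edgeR adjusted p = 5.5e-10) with the upper quartile and at 0.30 ± 0.15 (edgeR adjusted p = 0.12) with TMM. In the liver miR-145-3p was at 0.61 ± 0.17 and called higher with the upper quartile, and at -0.38 ± 0.18 and not called with TMM, and miR-143-5p went from 0.62 ± 0.16 to -0.37 ± 0.16 in the same way. The abundant arms were not called there with the upper quartile and were called lower with TMM. miR-143-3p went from -0.33 ± 0.16 to -1.30 ± 0.17, and miR-145-5p from -0.24 ± 0.18 to -1.22 ± 0.19. With DESeq2 they were at -1.36 and -1.28. In the liver 16.9% of all names were called lower with TMM. In the biceps miR-143-3p (-0.59 and -0.45), miR-145-5p (-0.57 and -0.42) and miR-145-3p (-0.57 and -0.43) were called lower with both, against 14% and 13.2% of all names. In the kidney cortex and the kidney medulla the same held for miR-143-3p, miR-143-5p and miR-145-5p, with miR-143-3p at -0.91 and -1.26 in the cortex. The shares of all names called lower were 6.2% and 9.31% in the cortex and 6.58% and 9.68% in the medulla. Kidney miR-143-3p was lower with both (-0.48 ± 0.17 and -1.02 ± 0.17). The testicle was called lower for miR-143-3p (-0.71 ± 0.24) although its mean CPM ranked 8th of 23, and with DESeq2 it was at 0.24 and not called. The soleus was called for no member with either scaling.

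**Figure D3:**
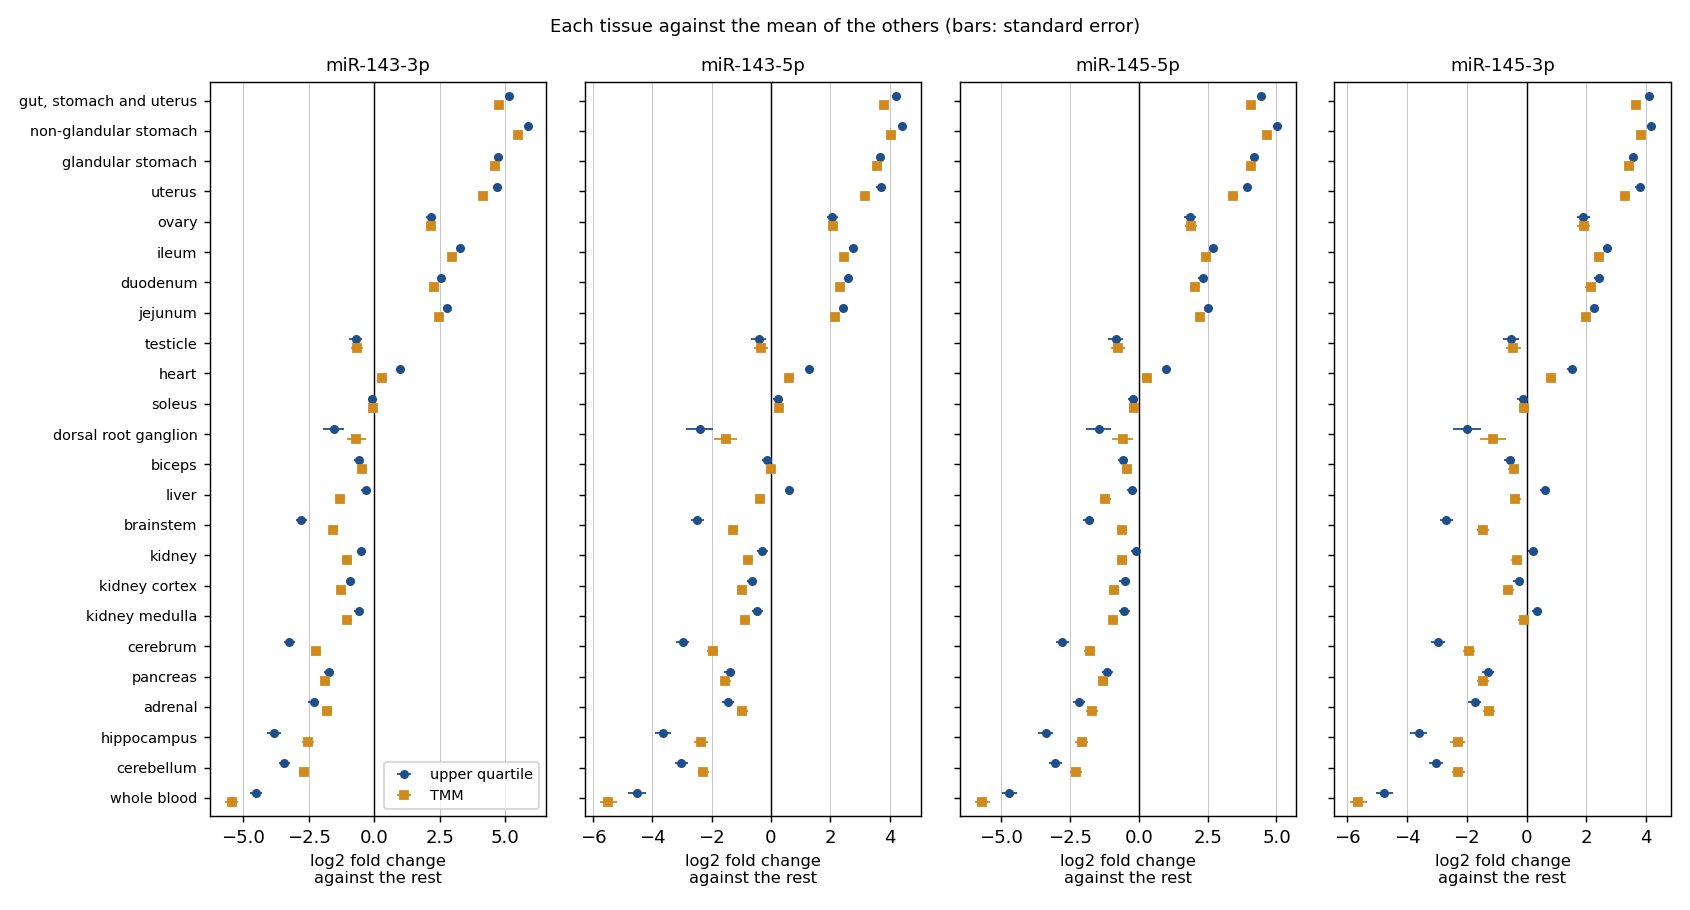
Log2 fold change of the 4 members when a single tissue is set against all others, and of gut, stomach and uterus together (top row), with upper quartile (circles) and TMM (squares) scaling. Bars are standard errors. Stomach, uterus, gut and ovary are above 0 for each member, while the liver changes side for miR-143-5p (0.62 and -0.37).

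Neighbours in the order of mean CPM were then compared in the same fit. For miR-143-3p, 14 of 22 neighbouring pairs were called (background 32.3% of tests over all names), and 8 were not. The glandular stomach and the uterus did not pass the test (log2 difference 0.03 ± 0.29, edgeR adjusted p = 1.0), nor did the ileum and the duodenum (0.71 ± 0.26, edgeR adjusted p = 0.061), the duodenum and the jejunum (-0.21 ± 0.25, edgeR adjusted p = 0.81), or the kidney, its cortex and its medulla. The non-glandular stomach exceeded the glandular stomach by 1.08 ± 0.22 (edgeR adjusted p = 5.8e-05). The cerebellum exceeded whole blood, its neighbour at the low end, by 1.05 ± 0.22 (edgeR adjusted p = 1.1e-05), and by 2.64 with TMM. In 4 of the 14 pairs the tissue with the higher CPM was the lower one after scaling. With TMM 10 pairs were called (background 29.7%). For miR-143-5p, miR-145-5p and miR-145-3p, 14, 14 and 9 of 22 neighbours were called, where the background was 31.9%, 32.8% and 30.9%, and 9, 10 and 8 with TMM (28.6%, 30.1% and 29.6%). The glandular stomach, though first in mean CPM, was below the non-glandular stomach for miR-143-5p (-0.71 ± 0.22, edgeR adjusted p = 0.020). The same held for miR-145-5p (-0.80 ± 0.24, edgeR adjusted p = 0.016). With TMM neither was called (-0.46 and -0.55).

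The ratio of miR-143-3p to miR-145-5p counts within a library needs no scaling. It is a ratio of counts and not of molecules, and is compared between tissues. It was largest in the non-glandular stomach, where the log2 ratio lay between 7.58 and 8.39 (median 8.21, mean 8.11 ± 0.25, n = 10), which is 277.2-fold. The uterus had 8.05 ± 0.23 (n = 4), the ileum 7.87 ± 0.67 (n = 10) and the glandular stomach 7.86 ± 0.32 (n = 10). At the other end stood the brainstem, with 5.48 to 7.16 (median 6.38, mean 6.37 ± 0.53, n = 10), or 82.7-fold, and the pancreas with 6.72 ± 0.42 (n = 10). The libraries of the non-glandular stomach and of the brainstem did not overlap.

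In two-sided permutation tests of all 231 pairs of 22 tissues, 80 were past an adjusted p of 0.05. The non-glandular stomach was higher in 17 of its 21 pairs and the glandular stomach and the uterus each in 12 of 21. The brainstem and the pancreas were lower in 15 of 21 each. Without the libraries from a second extraction, which leaves out the whole pancreas, 55 of 210 pairs were called. The non-glandular stomach exceeded the brainstem by 1.74 (permutation p = 2e-05, the smallest that 100000 resamples give here, adjusted p = 6.2e-04). It was not past the threshold against the glandular stomach (difference 0.26, permutation p = 0.060, adjusted p = 0.12) or the ileum (difference 0.25, permutation p = 0.30, adjusted p = 0.40). The soleus, biceps and heart, at 7.45, 7.28 and 7.33, were in the middle. Because the same rats gave the tissues, sign flips within rats are the paired form of this test. There 30 of 228 pairs were called. Tissues that share 5 rats or fewer, as in all pairs with the testicle, ovary, uterus or whole blood, cannot pass this test. The drop from 80 is thus in part set by the number of rats.

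The ratio varied far less than either miRNA. Over 22 tissues the mean log2 CPM of miR-143-3p spanned 11.4 and that of miR-145-5p 11.1, and the mean log2 ratio spanned 1.74. As a description, the mean level of miR-143-3p and the mean ratio had a Pearson r of 0.57 over 22 tissues, and 0.88 over 21 without whole blood, whose ratio (7.59 ± 0.76) came from 4 libraries with at least 10 counts of each name. The level enters both quantities.

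**Figure D4:**
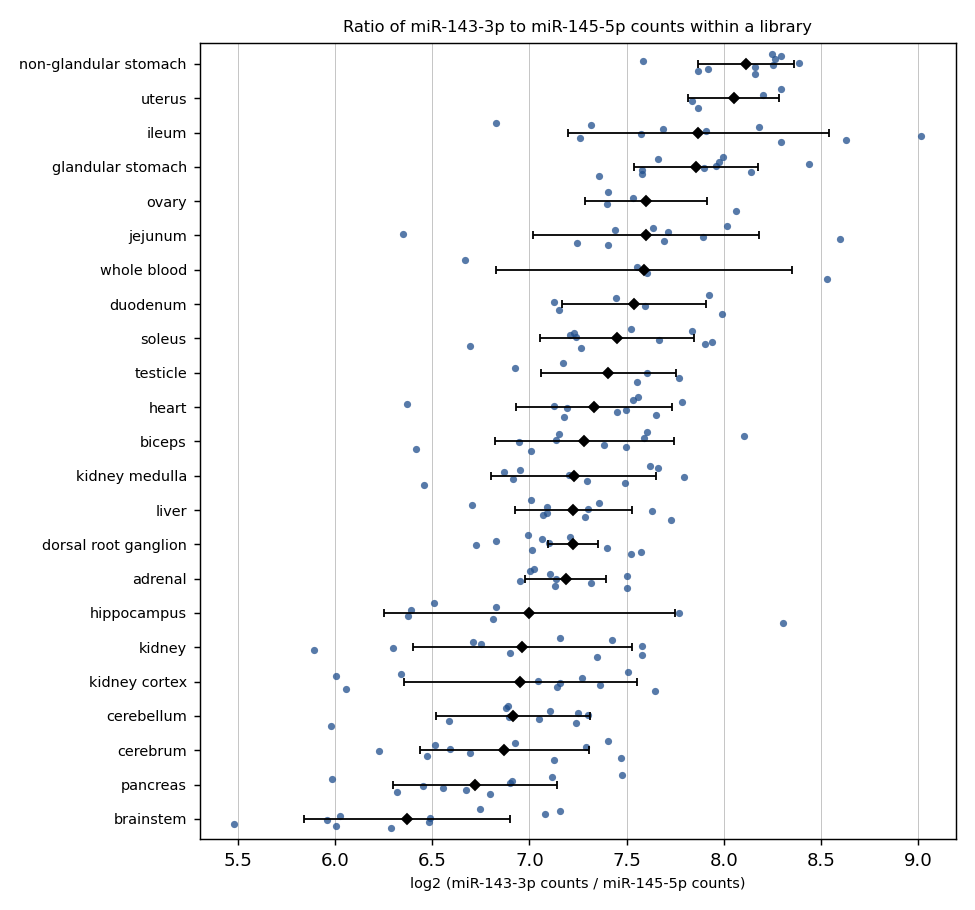
Log2 of the ratio of miR-143-3p to miR-145-5p counts in each library (dots), with the mean and SD of each tissue (diamonds and bars), ordered by mean. The non-glandular stomach (8.11) and the uterus (8.05) are at the top and the pancreas (6.72) and the brainstem (6.37) at the bottom. For the dorsal root ganglion, dots are technical libraries and the mean is that of 2 pools.

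Both arms of a precursor are cut from the same hairpin, and their counts were set against each other. Since 2 different sequences need not be captured equally well, a ratio of counts is not one of molecules, and it was compared only between tissues. For miR-143 the 3p arm had more counts than the 5p arm everywhere, by 1862 to 1 in the liver (log2 ratio of 5p to 3p -10.86 ± 0.30, n = 10) and by 8901 to 1 in the non-glandular stomach (-13.12 ± 0.39, n = 10). The adrenal (-10.93 ± 0.23, n = 9) lay next to the liver, and the glandular stomach and the uterus were both at -12.73. Of 210 pairs, 110 were past an adjusted p of 0.05. The 5p share was higher in 19 of 20 pairs for the liver and for the adrenal, and lower in 19 of 20 for the non-glandular stomach. Liver and adrenal did not pass the test against each other (exact permutation p = 0.62, adjusted p = 0.71). The libraries of the liver (-11.43 to -10.31) and of the non-glandular stomach (-13.80 to -12.43) did not overlap.

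For miR-145 the arms were much closer. The 5p arm led by 3.99 to 1 in the brainstem (log2 ratio of 3p to 5p -1.99 ± 0.62, n = 10) and by 3.83 to 1 in the non-glandular stomach (-1.94 ± 0.32, n = 10), but by 1.27 to 1 in the kidney medulla (-0.34 ± 0.47, n = 10) and 1.28 to 1 in the liver (-0.35 ± 0.33, n = 10). In single libraries of the kidney medulla (up to 0.59), the liver (up to 0.29), the biceps (up to 0.064) and the whole kidney (up to 0.036) miR-145-3p was the more counted arm. Of 210 pairs 69 were past the threshold, with the liver higher in 15 of 20 and the kidney medulla in 14 of 20, and the non-glandular stomach lower in 16 of 20. With sign flips within rats, 72 of 208 pairs were called for miR-143 and 30 of 208 for miR-145. Pairs with the testicle, ovary or uterus share too few rats to pass there.

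**Figure D5:**
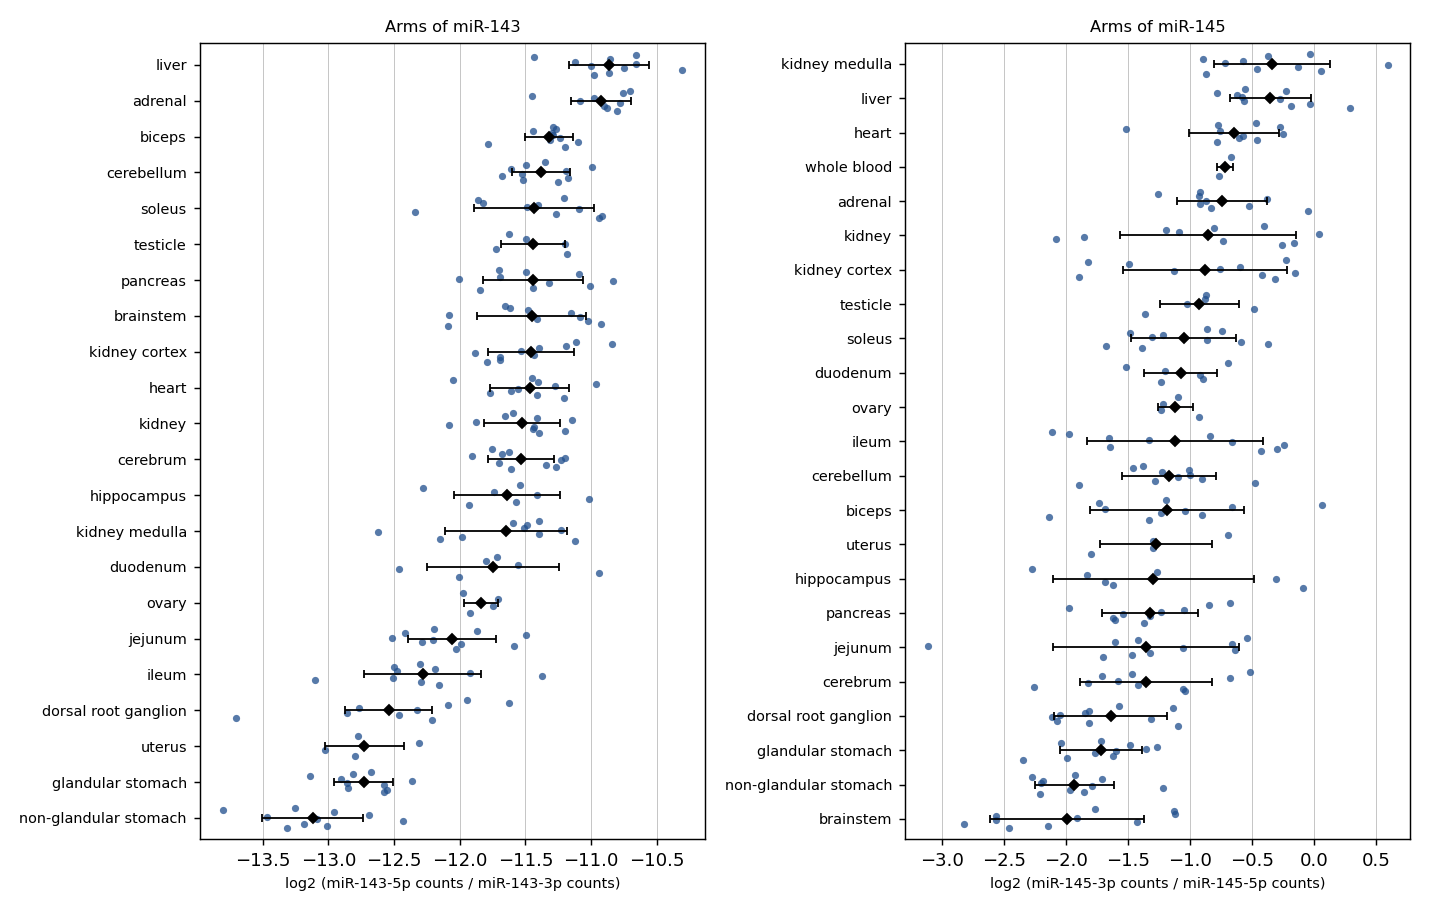
Log2 ratio of the minor to the major arm of miR-143 (left) and of miR-145 (right) in each library (dots) with the mean and SD of each tissue (diamonds and bars). The liver is at the top of the left panel (-10.86) and next to the top of the right panel (-0.35), and the non-glandular stomach is at the bottom of the left panel (-13.12).

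The deposited table also holds each sequence counted for a name (isomiRs). Sequences among the 3 most counted of a name are shown, to set the ends of the reads beside the RefSeq forms above. Capitals again mark bases 2 to 8.
miR-143-3p, most counted: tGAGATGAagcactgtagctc
miR-143-3p, second: tGAGATGAagcactgtagctct
miR-145-5p, most counted: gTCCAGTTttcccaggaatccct
miR-145-3p, most counted: aTTCCTGGaaatactgttctt
miR-145-3p, 1 base earlier: gATTCCTGgaaatactgttctt
For miR-143-3p the first of these held 35.3% of the counts and the second, whose last T is not in the hairpin, 27.8%. A last base that differs from the hairpin was found in 31.2% of the counts of miR-143-3p, 55.3% of miR-143-5p, 13.3% of miR-145-3p and 4.34% of miR-145-5p. miR-145-5p was the most uniform, with 75.3% in a single sequence that equals the RefSeq form. By tissue, the mean share of miR-143-3p with such a last base lay between 27.1% in whole blood and 36.2% in the heart, and that of miR-145-5p between 3.52% in the non-glandular stomach and 7.22% in the kidney medulla, as a description without a test. miR-145-3p was counted at a start 2 bases after the RefSeq start in 87.6% of its counts, which gives it another seed than the RefSeq form. That seed was not checked against those of the other rat miRNAs.

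The start of the read sets the seed, and here 1 lane stands apart. In its 14 runs, between 39.99% and 44.4% of the miR-143-3p counts and between 74.4% and 81.7% of the miR-145-5p counts had 1 more base at the 5′ end. In the 427 runs of the 22 other lanes with enough counts the share was 0.45% to 3.1% for miR-143-3p, and for miR-145-5p, in 345 runs, 0% to 0.36%. In that lane the added base of miR-143-3p matched the hairpin in 4.60% of cases, and in the other lanes in 99.7%. For miR-145-5p it was the reverse, with 87.3% of 28580 such counts in that lane and 49.1% of 106 in the others. For miR-143-5p and miR-145-3p the match was 11.3% and 18.0% in that lane, and 97.8% and 99.9% in the others. Most often the base added in that lane was T for miR-143-3p (54.0%) and A for miR-145-3p (77.2%). It was G for miR-143-5p (82.8%) and for miR-145-5p (87.3%). These are also the first bases of each name's most counted sequence, and for miR-145-5p G is the hairpin base too. What added the base was not tested. The 14 runs came from 14 libraries of several tissues, so tissue means of the share with another start moved with them, from 0.77% in the hippocampus to 9.89% in the uterus for miR-143-3p. In the permutation test 29 of 231 pairs of tissues were called for miR-143-3p and 10 of 210 for miR-145-5p. Without that lane, a choice made after seeing the data, the means were 0.75% in the pancreas to 1.24% in the non-glandular stomach, and 133 of 231 pairs were called, while for miR-145-5p they were 0.30% in the hippocampus to 0.70% in the cerebellum with 10 of 210 called. The non-glandular stomach had 1.15% to 1.49% and the cerebrum 0.67% to 0.84%, and these ranges did not overlap.

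Females and males were compared within the 19 tissues that have both. Of 76 tests of the members, 4 were past an adjusted p of 0.05 and all were in whole blood, against 1.08% of tests over all names. In whole blood itself 3.67% of all names were called higher in females and 7.42% lower. Outside whole blood, 72 folds lay between -0.98 and 0.54 on the log2 scale, and the smallest edgeR adjusted p was 0.12, for miR-145-5p in the ileum. In whole blood miR-143-3p had 189.1, 337.9, 134.6, 234.4 and 2716 CPM in males and 213.2, 393.7, 152.1, 828.8 and 179.2 in females, so 1 male library was far above the others and the groups overlapped. The female minus male log2 difference was -0.86 ± 0.27 (edgeR adjusted p = 0.022) for miR-143-3p, -1.55 ± 0.37 (edgeR adjusted p = 0.0013) for miR-145-5p and -1.40 ± 0.42 (edgeR adjusted p = 0.016) for miR-145-3p. With TMM these were -1.27, -1.86 and -1.77, and the same 4 tests were called. miR-143-5p had 0 counts in 5 female libraries and 0, 1, 0, 1 and 7 in the male ones. These calls rest on rat 6. Without it miR-143-3p was at 0.075 (edgeR adjusted p = 1), miR-145-3p at 0.76 (edgeR adjusted p = 0.41) and miR-145-5p at -0.81 (edgeR adjusted p = 0.18). Without rat 3, miR-143-3p was at -0.88 (edgeR adjusted p = 0.0505) and no longer called. Without rat 9 or without rat 11, 2 of 76 tests were past the threshold.

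Runs of the same whole blood library also differed. Here the first flow cell is a name for the one labelled AD1GBMACXX. It does not mean the first sequencing batch of the labels. Rat 6 had 289.3 CPM of miR-143-3p in its run on the first flow cell and 3056 in its other runs, while rat 10 had 2800 and 503.1, and rat 8 had 1413 and 297.1. With the first flow cell alone the sex difference of miR-143-3p turned to 1.398 (edgeR adjusted p = 0.0020), and with the other flow cells alone it was -0.88 (edgeR adjusted p = 0.023). In the 195 libraries other than whole blood, which include those of the dorsal root ganglion, the first flow cell and the others differed by a mean of 0.0094 ± 0.13 (SD) on the log2 scale, and 1 library, the kidney medulla of rat 4, differed by more than 0.5. What made the whole blood runs differ was not tested.

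Within a tissue, miR-143-3p and miR-145-5p were correlated over its rats. With at most 10 rats in a tissue, an r short of the threshold does not show that the names are unlinked. Both names are shares of the same library total. Over 19 tissues with at least 6 rats, Pearson's r of their log2 CPM was positive in 12, with a median of 0.18, and after adjustment over the 19 it was past the threshold in whole blood alone (r = 0.93, permutation p = 0.0012, adjusted p = 0.022; Spearman's rho = 0.77, permutation p = 0.012, adjusted p = 0.23; n = 10). Without the 2 rats farthest from the median, r in whole blood was 0.82. There miR-145-5p had 3 counts in the lowest library and 91 in that of rat 6. Between the first and the other flow cells it moved the same way as miR-143-3p in rats 6, 8 and 10. It had 1.29 and 16.3 CPM in rat 6, 4.12 and 1.82 in rat 8, and 11.5 and 0.71 in rat 10. For this r, differences between rats and between runs cannot be told apart. In the heart r was -0.78 (permutation p = 0.013, adjusted p = 0.12), Spearman's rho was -0.60 (permutation p = 0.073, adjusted p = 0.46), and r was -0.38 without the 2 rats farthest from the median and turned to 0.18 with upper quartile scaled values.

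Other miRNAs of connective tissue and vessel wall were read in the same comparison of gut, stomach and uterus with the rest. Of 13, 8 were called higher and 2 lower, with a median log2 fold change of 1.24, where the median over all names was 0.04 (with TMM 8 and 4, and medians of 0.97 and -0.23). The largest folds were those of miR-214-3p (2.38 ± 0.09), miR-199a-5p (2.33 ± 0.10) and miR-199a-3p (2.33 ± 0.10), a cluster known from mesenchymal cells, and each was below those of the 4 members. The smallest were those of miR-99a-5p (-0.32 ± 0.09), miR-221-3p (-0.24 ± 0.09) and miR-222-3p (-0.09 ± 0.10, edgeR adjusted p = 0.60), of which the first and second were called lower. With TMM miR-222-3p was called lower as well (-0.48 ± 0.09). Of the 13, 11 had their highest mean outside these 6 organs, such as miR-10b-5p in the adrenal (335318 CPM), miR-21-5p in the liver (38456) and miR-199a-5p in the ovary (873.3).

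Markers of other cell types moved with the same comparison. All 7 epithelial miRNAs were called higher (median 5.96), and their summed level was 908.7 to 10815 CPM in the 6 organs and 6.97 to 24476 in the other 17, with its highest value in the pancreas, where miR-143-3p was low. Of 6 striated muscle miRNAs 3 were called higher and 1 lower, and their sum was 479.8 to 3268 CPM in the 6 organs, against 296369 in the biceps. Both endothelial miRNAs (miR-126a) summed to 1052 to 3451 CPM in the 6 organs and to 24174 in the heart, with 0 called higher and 1 lower (0 and 2 with TMM). Of 6 blood miRNAs 3 were higher and 3 lower. Both neuronal miRNAs were lower, both pancreatic ones higher, and miR-122-5p of the liver was not called. The pancreatic pair summed to 868.3 CPM in the duodenum and 43.5 in the glandular stomach, against 11290 in the pancreas. In the jejunum, non-glandular stomach, ileum and uterus it summed to only 0.45, 0.49, 0.60 and 1.31 CPM. With TMM the counts of calls in these lists, other than the endothelial one, were the same. The part of these cell types in the level of the members was not tested.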

How the data were processed

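Small RNA of rat tissues was sequenced on an Illumina HiSeq from TruSeq small RNA libraries. The authors trimmed adapters (cutadapt 1.4.1 in the submitters' processing notes), kept reads of at least 17 bases and assigned them with miRDeep2 to known rat miRNAs, the remainder in turn to those of mouse, human and C. elegans, and to predicted ones, and deposited the counts of reads per miRNA name and per isomiR sequence for each run. Of 458 runs, 14 that repeat a lane were set aside and 444 were summed to 215 libraries, of which 10 were left out. Counts of the 10 dorsal root ganglion libraries were summed to 2 pools, which gave 197 samples for the fits. No other per-sample column was present. Members and lists were chosen with earlier results of these data known. The names given in the text are the members, the 5 non-members most correlated with miR-143-3p and with miR-145-5p over tissues, and the lists of connective tissue and cell type miRNAs.

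CPM were computed over all names. Levels were tested with edgeR 4.0.16 in R 4.3.3 (quasi-likelihood, upper quartile scaling, filterByExpr), adjusted by Benjamini-Hochberg over 1612 names (1064 for sex) with a threshold of 0.05. Ratios, in libraries with at least 10 counts of both names, and start shares, with at least 100 counts, were compared by two-sided permutation tests, exact where a group had fewer than 10 libraries and otherwise with 100000 resamples, in scipy 1.17.1. Alternatives were TMM, DESeq2 1.42.0, other filters, libraries, runs and rats. Deviations from tissue means had a median correlation of 0.019 for libraries of the same rat (1808 pairs) and -0.0068 for others (16293 pairs). The test scripts were checked on simulated counts with changes in the 6 organs. All changed names were recovered with both scalings, but upper quartile scaling shifted the folds, by more in 1 of 2 draws, where it also called many unchanged names, while TMM kept close to the values set. TMM values or calls are therefore given beside the main results for tissues, sexes and lists. Reads copied by PCR and not marked by identifiers are not independent. miRNA and gene positions are those of RefSeq on GRCr8, matched by name.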

Additional observations from a re-analysis of the deposited data

Results flagged for a closer look

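In whole blood the library of rat 6 lay far from the 9 others for each member, with 2716 CPM of miR-143-3p (others up to 828.8), 1.11 of miR-143-5p (others up to 0.14), 14.4 of miR-145-5p (others up to 3.32) and 9.04 of miR-145-3p (others up to 1.22). In the heart, rat 5 had 865.5 CPM of miR-145-5p, a log2 ratio of miR-143-3p to miR-145-5p of 6.37 and a log2 ratio of miR-145-3p to miR-145-5p of -1.52, and rat 7 had 473.4 CPM of miR-145-3p. In the jejunum, rat 6 had 2780 CPM of miR-145-5p and a log2 ratio of miR-145-3p to miR-145-5p of -3.12. The adrenal of rat 11 had 99.6 CPM of miR-145-3p (others up to 74.4), the brainstem of rat 9 had 42.5 (others from 89.7), and the biceps of rat 10 had a log2 ratio of miR-143-5p to miR-143-3p of -11.79.

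The start of the read stood apart in single libraries of 13 tissues. The shares of miR-143-3p and of miR-145-5p with another start were 35.5% and 68.6% in the brainstem of rat 6, 36.3% and 63.9% in the cerebrum of rat 9 and 34.0% and 62.6% in the duodenum of rat 8. They were 34.1% and 64.8% in the heart of rat 3, 33.7% and 63.7% in the ileum of rat 3 and 35.3% and 70.7% in the kidney of rat 7. They were 34.3% and 63.8% in the kidney medulla of rat 7, 38.3% and 68.9% in the biceps of rat 10 and 35.4% and 64.8% in the soleus of rat 8. They were 33.0% and 60.7% in the pancreas of rat 5, 38.5% and 68.5% in the glandular stomach of rat 4 and 36.8% and 63.1% in the testicle of rat 5. They were 36.0% and 64.6% in the uterus of rat 10. For miR-143-3p alone, the liver of rat 4 had 1.28% and the non-glandular stomach of rat 5 had 1.49%. In all, 41 of 195 groups of libraries had such an extreme value, where chance flags about 1 in 20 groups, or 9.8 here. Of the 41, 28 were shares of reads with another start, and 26 of these came from 13 libraries with a run on the lane that stood apart, which leaves 13 for levels and ratios.

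Among the libraries left out, those labelled hippocampus had 627597, 278401 and 416937 CPM of miR-143-3p, against up to 19298 in the hippocampus libraries used, and the one labelled adrenal had 247913, against up to 18710.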

How the results depend on the processing

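The 4 members were higher in gut, stomach and uterus under all 21 settings tried, with log2 fold changes of 4.61 to 5.25 for miR-143-3p, 4.06 to 4.55 for miR-145-5p, 3.76 to 4.34 for miR-143-5p and 3.61 to 4.21 for miR-145-3p. Of the 92 tests of single tissues, 56 kept their sign and their side of the threshold under every setting and 15 changed sign under some setting. With the 10 left-out libraries put back, 24 tests were called lower (44 without them), and the hippocampus turned to 1.81, 1.56, 0.68 and 1.42 for miR-143-3p, miR-143-5p, miR-145-5p and miR-145-3p, soleus miR-143-5p to -0.025 and kidney miR-145-3p to -0.028. With TMM, DESeq2 size factors and DESeq2, in this order, liver miR-143-5p turned to -0.37, -0.42 and -0.43, liver miR-145-3p to -0.38, -0.43 and -0.44, kidney miR-145-3p to -0.33, -0.59 and -0.60, kidney medulla miR-145-3p to -0.093, -0.38 and -0.38, and biceps miR-143-5p to 0.013, 0.10 and 0.12. With DESeq2 size factors and with DESeq2, the testicle turned to 0.24 and 0.24 for miR-143-3p, 0.56 and 0.56 for miR-143-5p, 0.12 and 0.12 for miR-145-5p and 0.41 and 0.41 for miR-145-3p. With the first flow cell alone, liver miR-143-5p was at -0.45, biceps miR-143-5p at 0.17 and soleus miR-143-3p at 0.024. The cause of these turns was not tested. With TMM, 9 neighbours were called for miR-143-5p (14 with the upper quartile).

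The same rats gave the tissues, and with the rat as a replicate block the kidney miR-145-3p turned to -0.015. In the paired sign flips 30 pairs of tissues were called for the ratio of miR-143-3p to miR-145-5p (80 unpaired), 72 for the arms of miR-143 (110 unpaired) and 30 for those of miR-145 (69 unpaired). These paired tests rest on fewer rats. Pairs of tissues that share 5 rats or fewer could not pass them, so the drops are in part set in advance. With the first flow cell alone, 35 of 55 pairs were called for the arms of miR-143, since fewer libraries had enough counts. Leaving out 1 rat at a time gave 55 to 82, 107 to 115 and 55 to 72 pairs.

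Of the sex tests, 2 were called with the first flow cell and 2 with the others, choices added after seeing the data, and 0 to 4 when 1 rat was left out. In whole blood the female minus male difference turned to 1.398, 2.01 and 3.89 for miR-143-3p, miR-145-5p and miR-145-3p with the first flow cell, and to 0.075 for miR-143-3p and 0.76 for miR-145-3p without rat 6. Leaving out each rat in turn gave -1.12 to 0.075 for miR-143-3p, -1.94 to -0.81 for miR-145-5p and -2.03 to 0.76 for miR-145-3p. For the start of reads, 133 pairs were called for miR-143-3p without the lane described above (29 with it), and 6 for miR-145-5p with at least 1000 counts (10 with at least 100). Across rats, upper quartile scaled values gave 2 tissues past the threshold in place of 1, and r in the heart turned to 0.18. Scaled to the counts of all other names, miR-143-3p had 5617430 CPM in the non-glandular stomach, 3000190 in the glandular stomach, 1526484 in the uterus, 516005 in the ovary, 452705 in the ileum, 391710 in the duodenum, 276702 in the jejunum, 148456 in the testicle and 95613 in the heart. Depth limits the rarer arm: miR-143-5p in whole blood rests on 9 counts in all.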

Other observations

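RNA had been extracted a second time for some libraries of 9 tissues, among them 1 of the brainstem and all 10 of the pancreas, and 7 tissues had enough libraries of both kinds for a test. Between first and second extracts, 0 of 7 differences in the log2 ratio of miR-143-3p to miR-145-5p or in the level of miR-143-3p were past the threshold in exact permutation tests (smallest unadjusted p = 0.071 and 0.076, smallest adjusted p = 0.35 and 0.42). In the liver, 5 second extracts had a mean log2 ratio of 7.41 and 5 first extracts 7.05, and in the duodenum 3 second extracts had 7.24 and 3 first extracts 7.84, where 3 against 3 cannot give a p below 0.10.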
